A study of Mus musculus with 2 samples.

Results

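In hearts lacking Hand2 in the endocardium, mesenchymal cells with transcripts of the GFP that Cre switches on were set beside mesenchymal cells of the same library without them. The Cre-lineage group comprised 243 cells with at least 3 UMIs (unique molecular identifiers, each standing for 1 captured transcript) of the GFP reporter, and the other group 577 cells with 0. Together they are 820 of the 11640 barcodes in the embeddings deposited for the series, and of 27999 barcodes in its count matrices. Cells were taken from the 6232 barcodes in the embedding of the H2CKO library. They were chosen by measured transcripts. Each had a UMI in at least 4 of Twist1, Sox9, Pdgfra, Prrx1, Vcan, Papss2 and Msx1, and in fewer than 4 of Pecam1, Cdh5, Tie1, Emcn, Egfl7 and Esam. Tnnt2, Myh6, Myh7, Actc1 and Myl7 together made up less than 2% of their UMIs. These steps left 994, then 958, then 902 cells, or 14.5% of the embedding (exact binomial 95% interval 13.6 to 15.4). The 82 gated cells with 1 or 2 GFP UMIs belong to neither group.

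Both libraries came from whole mouse hearts at E11.5, with 1 library per genotype. H2CKO embryos were Nfatc1Cre/wtHand2fx/fxR26RmTmG/wt by their label, and control embryos Hand2fx/+R26RmTmG/wt with no Cre listed. All embryos therefore carried at least 1 floxed Hand2 allele and 1 mTmG reporter allele, and the control also differed from H2CKO in Cre and in the number of floxed alleles. Cre is driven from the Nfatc1 locus, which is active in the endocardium, so GFP marks endocardial cells and their descendants. Embryos were kept on ice for about 3 hours before dissociation, and the number and sex of the embryos behind each library are not in the labels.

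Endocardial cells of the atrioventricular canal and outflow tract undergo an epithelial-to-mesenchymal transition and fill the cardiac cushions, the precursors of valves and septa. Other cushion and outflow mesenchyme comes from the cardiac neural crest, the second heart field and the epicardium. HAND2 is a basic helix-loop-helix transcription factor that is made in endocardium, myocardium, neural crest and cushion mesenchyme. The mTmG reporter makes membrane Tomato until Cre removes its cassette, and membrane GFP afterwards. Comparing GFP-marked with unmarked mesenchyme addresses which transcripts differ between cells with GFP from the recombined reporter and cells of the same suspension in which none was found. GFP reads the reporter allele and not the Hand2 allele, so the unmarked group is not shown to be free of cells from the Cre lineage or of cells with a recombined Hand2 allele.

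The GFP cut fell in an almost empty range. Lineage cells had from 3 to 84 GFP UMIs, with a median of 28 and quartiles of 20 and 36.5. Cells of the lineage group were selected on these GFP values, which are given as a description. Just inside the threshold lay 1 cell with 3 UMIs, with 0 cells at 4 or 5, and just outside it lay 7 cells with 2 UMIs and 75 with 1. In the control library, gated alike, 18 of 1900 cells reached 3 UMIs (0.947%, 95% interval 0.562 to 1.49), and the highest had 5. In H2CKO the same cut was passed by 64.0% of the cells of an endothelial gate (60.01 to 67.9), 0.555% of a cardiomyocyte gate and 1.60% of an erythroid gate. Erythroid cells serve further on as the background of free RNA for Hand2, and 46 of the 5385 had 10 or more GFP UMIs. The median cell held 10085 UMIs and 3112 genes in the lineage group and 10295 UMIs and 3168 genes in the other group. Mitochondrial transcripts took a median of 3.96% and 3.82%, and haemoglobin 0.654% and 0.663%. Depth and these quality measures were thus close between the groups, whereas the gated control cells were deeper, at 13758.5 UMIs. Of 57 barcodes present in both libraries, 2 were lineage and 2 other cells.

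**Figure D1:**
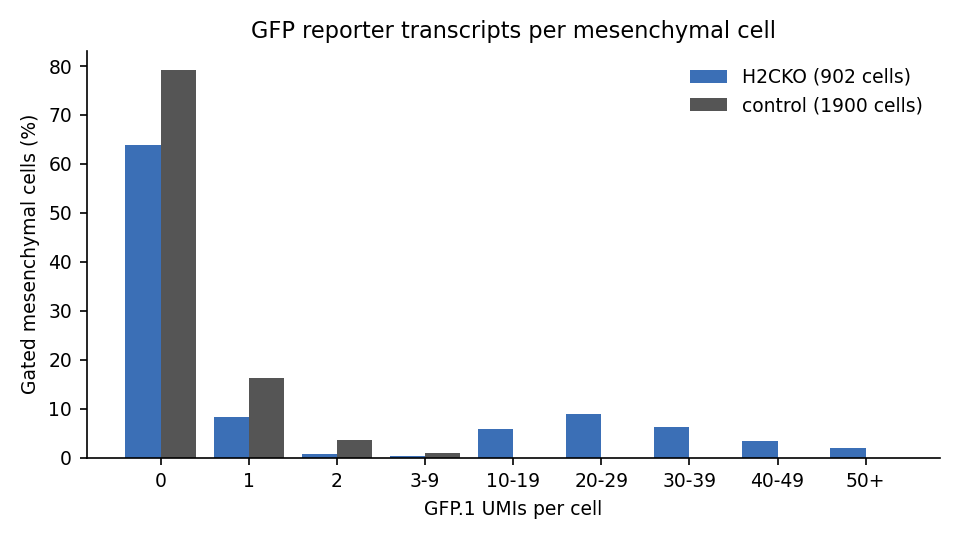
Share of gated mesenchymal cells (%, vertical axis) by the number of GFP UMIs per cell (horizontal axis, binned above 2) in H2CKO (902 cells) and control (1900 cells). H2CKO cells form a group at 0 and a second, separate group with a median of 28 UMIs, which the control lacks.

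The mesenchymal gate genes chose the cells, so their levels only describe the groups. Vcan, the cushion proteoglycan versican, stood at 982 CPM (UMIs of a gene scaled to a common total of UMIs per group) in lineage and 1141 CPM in other cells. Sox9, a transcription factor of cushion mesenchyme, was at 316 and 335 CPM. Twist1, a mesenchymal bHLH factor, was at 398 and 581 CPM. The other gate genes differed more, in both directions. Pdgfra, a PDGF receptor, was at 39.4 and 93.8 CPM (a log2 ratio of −1.16), Prrx1 at 63.3 and 129 CPM (−0.97) and Papss2 at 69.6 and 112 CPM (−0.65), while Msx1, a homeobox factor of cushion mesenchyme, was at 149 and 81.8 CPM (0.82). Tomato (the feature Tomato.1), the transcript lost on recombination, had 3 UMIs in lineage cells, or 1.01 CPM (exact Poisson 95% interval 0.208 to 2.95), and 41 UMIs in other cells, or 6.42 CPM (4.61 to 8.71). All intervals here cover counting error only.

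Hand2 (ENSMUSG00000038193, chr8:57320983-57324517 in GRCm38.p6), the targeted gene, was low in lineage cells. They held 60 UMIs, or 20.2 CPM (15.4 to 25.99), against 476 UMIs, or 74.6 CPM (68.0 to 81.6), in the other cells. The log2 ratio, computed throughout on CPM plus 5, was −1.66, and the plain ratio was 0.271 (exact 95% interval 0.203 to 0.355). A Hand2 UMI was found in 13.2% of lineage and 40.6% of other cells, against 4.07% of erythroid cells at a median of 13538 UMIs. The 82 cells with 1 or 2 GFP UMIs had 66.6 CPM of Hand2, close to the cells with 0. The gated control mesenchyme had 163 CPM (159 to 168), with a UMI in 86.9% of cells. The unmarked H2CKO cells therefore also lay below the control library. A 3′ assay can count transcript that remains after part of a gene is deleted, so these levels are not a measure of deletion.

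Most of the Hand2 UMIs of the lineage group came from few cells. The 18 lineage cells of a cluster with cardiomyocyte genes in the lead (cluster 6, described further on) held 36 of the 60 UMIs. Cells of that cluster were deeper, with a median of 24486 UMIs against 10368 over all gated H2CKO cells. Without that cluster and 2 other small ones, Hand2 was at 8.29 CPM in lineage and 70.8 CPM in other cells, a log2 ratio of −2.51.

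Across all genes, few transcripts separated the groups by 2-fold. Of 5927 genes tested, those with at least 20 CPM and 20 UMIs in the higher group, 10 were higher in lineage cells by 2-fold or more (0.169%) and 42 were lower (0.709%), together 0.877%. The median log2 ratio over all tested genes was −0.016, and 90% of them lay between −0.40 and 0.36. Since each group is a set of cells from 1 library, the differences have no replicate check and no p-value, and genes are called by size alone.

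The gene with the highest ratio in lineage cells was Tspan8. Tspan8, which encodes a tetraspanin of the cell surface, had 127 UMIs (42.7 CPM) in lineage and 74 UMIs (11.6 CPM) in other cells, with a log2 ratio of 1.52. Adamts19, a secreted metalloprotease gene known from valve mesenchyme, stood at 23.2 and 6.42 CPM (1.30). Ptprb, the vascular endothelial phosphatase, stood at 89.8 and 36.5 CPM (1.19). These 3 are present in both groups, with a Tspan8 UMI in 28.4% of lineage and 8.49% of other cells. Klf2, a shear-responsive transcription factor of endothelium, was at 144 and 64.1 CPM (1.11). Flt1, a VEGF receptor, was at 20.2 and 6.89 CPM (1.08). Igfbp2, a secreted binding protein for insulin-like growth factors, was at 85.8 and 39.6 CPM (1.02). In the mixed clusters described further on, Klf2 was at 128 and 105 CPM (0.28) and Igfbp2 at 94.1 and 72.7 CPM (0.35). Flt1 was at 14.8 and 12.3 CPM there, too low to be tested. Cluster 8, with 6 lineage and 4 other cells, had 1069 CPM of Klf2. The other genes called over all gated cells were Btn1a1 (1.26), Klf1 (1.10), Map3k20 (1.02) and Pkp2 (1.01). Of the 61 Pkp2 UMIs in lineage cells, 47 lay in the 18 lineage cells of cluster 6, described further on, and 37 of the 49 UMIs in other cells lay in the same cluster. Htra1, a secreted serine protease, at 195 and 95.3 CPM (log2 ratio 0.997), and Ccdc141 (0.989) lay just under the threshold. In the mixed clusters Htra1 was at 247 and 230 CPM (0.10) and Ccdc141 at 24.5 and 23.5 CPM (0.045).

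The lower genes were led by Stmn4, a stathmin that binds tubulin and is known from neurons. It had 26 UMIs (8.75 CPM) in lineage and 547 UMIs (85.7 CPM) in other cells, a log2 ratio of −2.72. Crabp1, a cytoplasmic retinoic acid binding protein found in neural crest, had 19 UMIs (6.39 CPM) and 368 UMIs (57.7 CPM), at −2.46. A Crabp1 UMI was present in 6.58% of lineage and 28.2% of other cells. Tgfbi, a TGF-beta-induced matrix protein, was at 84.8 and 360 CPM (−2.03), with a median of 0 and 3 UMIs per cell. Meox1, a mesodermal homeobox factor, was at 39.03 and 143 CPM (−1.75). Lum, the matrix proteoglycan lumican, was at 17.5 and 72.5 CPM (−1.79). Beside Hand2 and Tagln, given with their groups, the 12 lowest genes also held Gkn3 (−1.90), the tropomyosin gene Tpm2 (−1.87), the elastic fibre gene Fbln5 (−1.85), Akr1cl (−1.64) and the guidance receptor gene Robo2 (−1.61).

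Counts per list are to be read against the shares over all tested genes, 0.709% lower and 0.169% higher. By role, the smooth muscle list had the lowest median of the described lists. Of its 8 tested members 2 were called lower and 0 higher, 1 was above 0, and the median log2 ratio was −0.80. Tagln, the actin-binding protein transgelin, was at 424 and 1343 CPM (−1.65), and Rgs5, a G-protein regulator of mural cells, at 5.38 and 25.1 CPM (−1.53). Acta2, smooth muscle actin, was at 322 and 569 CPM (−0.81) and was not called. Des, the 1 member above 0, was at 123 and 71.1 CPM (0.75). In a finer clustering, Rgs5 was at 512 CPM in a cluster of 12 cells (11 other, 0 lineage). The rest of the gated cells had 13.4 CPM of Rgs5. The summed level of the 15 listed genes was 1382 CPM in lineage and 2843 CPM in other cells, and the gated control cells had 2546 CPM.

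Neural crest genes could be tested for only 5 of 20, of which 2 were lower, Crabp1 and Hand1, with a median of −0.58. Of the 5, 1 was above 0, Kitl, at 78.7 and 54.7 CPM (0.49). Hand1, the sister gene of Hand2, had 17 UMIs (5.72 CPM) in lineage and 171 UMIs (26.8 CPM) in other cells (−1.57). The early crest genes Tfap2b and Foxd3 had 0 UMIs in both groups. Tfap2a had 1 and 21 UMIs, too few to be tested. Sox10, with 10 and 11 UMIs (3.36 and 1.72 CPM), was not tested either. Among 6 tested genes of the second heart field list, Wnt5a, a secreted Wnt ligand, was lower (21.9 and 55.1 CPM, −1.16) and 0 were higher, with 3 of 6 above 0 and a median of 0.025. The highest of them, Nkx2-5, a cardiac homeobox factor, was at 31.3 and 18.6 CPM (0.62). Isl1, a second heart field marker, had 10 and 51 UMIs and was not tested. The epicardial list had 0 of 8 called, 3 above 0 and a median of −0.28. Tbx18 was at 20.9 and 26.5 CPM and Tcf21 at 98.2 and 123 CPM, while Upk3b, a uroplakin of the epicardium and mesothelium, was at 31.0 and 15.8 CPM (0.79). A few cells carried it: the 92 UMIs of the lineage group lay in 10 of its 243 cells (4.12%), against 4.51% of other cells with a UMI, with 40 of the 92 in cluster 6 and 38 in cluster 7, described further on.

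Most cushion and valve genes were under 2-fold, with 4 of 22 lower (Tgfbi, Lum, Meox1, Col2a1), 0 higher and a median of −0.25. Over all tested genes, 0.709% were lower and 0.169% higher. Of the 22, 7 had a ratio above 0. Hapln1, a hyaluronan link protein of cushion jelly, was at 868 and 579 CPM (0.58), and Col9a3 at 224 and 171 CPM (0.38). Tbx20, a T-box factor of cushion and myocardium, was at 253 and 263 CPM (−0.057). Postn, the matrix protein periostin, was lower without reaching 2-fold, at 398 and 546 CPM (−0.45). The list of transcription factors and adhesion genes of the epithelial-to-mesenchymal transition had 0 of 15 called and a median of −0.086.

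Of the matrix genes, 1 of 13 collagens (Col2a1, −1.08) and 4 of 17 proteoglycan and elastic fibre genes (Fbln5, Lum, Tnc and Mfap4) were lower and 0 higher. Tnc, tenascin C, was at 9.76 and 38.4 CPM, and Mfap4, a microfibril protein, at 41.05 and 96.7 CPM.

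Among signalling genes, the Wnt list had 3 of 14 lower (Sfrp2, Fzd1 and Wnt5a) and a median of −0.41. Sfrp2, a secreted Wnt antagonist, was at 7.07 and 31.8 CPM (−1.61), and the receptor Fzd1 at 23.2 and 68.9 CPM (−1.39). The Wnt feedback genes Nkd1 (80.4 and 41.05 CPM, 0.89) and Axin2 (21.2 and 9.71 CPM, 0.83) had ratios in the other direction without reaching 2-fold. In the TGF-beta list 2 of 10 were lower, Tgfbi and the activin subunit Inhba (72.3 and 186 CPM, −1.30). The IGF list had 1 of 8 higher (Igfbp2), and Igf2, a fetal growth factor, was at 389 and 545 CPM (−0.48). The retinoic acid list had 1 of 5 lower (Crabp1), the guidance list 1 of 9 (Robo2). The bHLH list had 2 of 10 lower, Hand2 and Hand1. BMP (14 tested), Notch (5), PDGF and FGF (4), pleiotrophin and midkine (8), Hox (4), S phase (16), G2/M (16), dissociation stress (14) and glycolysis (12) lists had 0 called in either direction. Over all tested genes 0.877% were called, so 0 in lists this short is near that share. Some of these lists still lay to one side. The dissociation stress list had 10 of 14 above 0 and a median of 0.36, with Nr4a1, an immediate early gene, at 32.6 and 17.9 CPM (0.72), and the S phase list had 14 of 16 above 0 and a median of 0.14. In the other direction, G2/M had 2 of 16 above 0 (median −0.17), glycolysis 2 of 12 (−0.15), and pleiotrophin and midkine 1 of 8 (−0.27). The part of dissociation stress in the gene differences was not tested.

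Markers of other cell types differed between the groups as well. The endothelial list had 2 of 9 tested genes higher (Klf2 and Flt1), against 0.169% of all tested genes. Its median was 0.60 and its summed level 717 CPM in lineage against 523 CPM in other cells. In the mixed clusters described further on, that median was −0.010. Cardiomyocyte genes that the gate did not use had 0 of 14 called, but all 14 were above 0, with a median of 0.55 and summed levels of 5574 and 3745 CPM. This median turned to −0.044 without clusters 6, 7 and 8, and to −0.092 in cells with at most 5% mitochondrial UMIs. Listed white blood cell genes summed to 12.8 and 13.8 CPM and erythroid genes to 6002 and 6448 CPM. The part of these transcripts in the gene differences was not tested, apart from leaving out the clusters named below.

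Clustering of all 902 gated cells, without the reporters and Hand2, gave 8 clusters, and lineage cells were spread unevenly over them. In cluster 1, led by Iigp1, Fbln5, Rgs5, Penk and Hand1, 4 of 179 lineage and other cells were lineage (2.23%, 95% interval 0.612 to 5.62). In cluster 3, led by Stmn3, Stmn4, Twist2, Tgfbi and Crabp1, 2 of 140 were (1.43%, 0.173 to 5.07). These clusters held 54.2% of the other cells and 2.47% of the lineage cells. Lineage cells made up 47.0% of cluster 2 (Mstn, Btn1a1, Tmem178, Htra1, Car3), 59.4% of cluster 4 (Hist1h1b, Hist1h1a, Sp5, Fst, Slfn9) and 48.9% of cluster 5, led by the mitotic genes Nusap1, Ube2c, Prc1, Cenpf and Cdc20. The last 3 held 209 lineage cells (86.0%) and 194 other cells (33.6%), and are called the mixed clusters here. Leading genes describe a cluster and are no test, since the clusters were built from them.

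Of the smaller clusters, cluster 6 had 18 lineage and 28 other cells, led by Ttn, Myh6, Myh7, Nebl and Slc8a1. Cluster 7 had 4 and 38 cells, led by Upk3b, Apela, Dcn, Wt1 and Krt7, genes that include markers of the epicardium and mesothelium. Cluster 8 had 6 and 4 cells, led by Stmn2, Serpinb1a, Nts, Klf2 and Pecam1. Cluster 6 cells had cardiomyocyte genes in the lead although they had passed the cardiomyocyte gate, and no cluster received a cell type name.

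**Figure D2:**
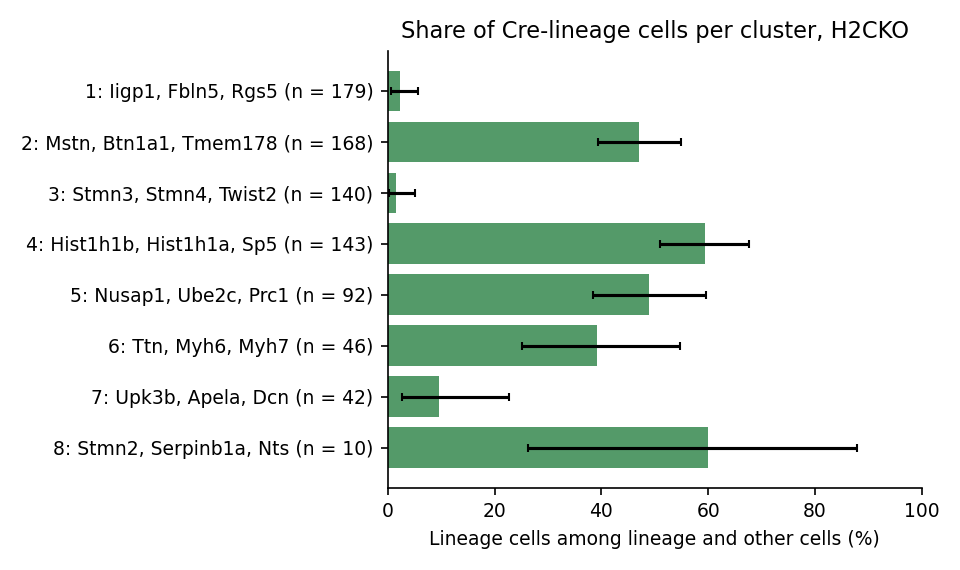
Lineage cells as a percentage of lineage and other cells in each cluster of the 902 gated H2CKO cells (horizontal axis, bars from 0), with exact binomial 95% intervals as error bars and the 3 leading genes and number of cells per cluster. Clusters 1 and 3 hold 2.23% and 1.43% lineage cells, clusters 2, 4 and 5 between 47.0% and 59.4%.

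With the mixed clusters pooled, nearly all of the differences were under 2-fold. Of 5787 genes tested, 0 were higher in lineage cells and 1 was lower (0.0173%). This was Gkn3, with 14 UMIs (6.46 CPM) in lineage and 45 UMIs (23.0 CPM) in other cells, a log2 ratio of −1.29. Single clusters gave more calls from fewer cells. Cluster 2 (79 lineage and 89 other cells) had 10 higher and 39 lower of 4656 genes (1.05%), and cluster 4 (85 and 58 cells) had 40 higher and 12 lower of 5215 (0.997%). Called the same way in both of these clusters were 0 genes. Of the genes called over all gated cells, Akr1cl was called lower in cluster 2, and Lum, Plac1 and Tpm2 were called lower in cluster 4. Of the 52 genes called over all gated cells, 30 met the count minimum with the mixed clusters pooled. Of the 52, 44 kept the sign of their log2 ratio and for 35 that log2 ratio was under 0.5 in size. The clusters were built from the same transcripts and the mixed clusters were chosen after their make-up was seen, so this is a description.

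Tgfbi stood at 74.8 CPM in lineage and 85.0 CPM in other cells of the mixed clusters, where over all cells it had differed more than 4-fold. Its level in the other cells of clusters 1 and 3 was 605 CPM. Meox1 stood at 39.2 and 36.9 CPM in the mixed clusters, and at 237 CPM in the other cells of clusters 1 and 3. Tagln was at 348 and 454 CPM against 1986 CPM, and Crabp1 at 3.69 and 6.14 CPM against 101 CPM. Tgfbi, Meox1 and Crabp1 are among the leading genes of cluster 3, so their difference between clusters comes with the clustering. Hapln1 was at 1003 and 932 CPM in the mixed clusters and 453 CPM in the other cells of clusters 1 and 3. Tspan8, the gene with the highest ratio, had 48.9 CPM in lineage (95% interval 40.05 to 59.2) and 29.2 CPM in other cells (22.1 to 37.8), with 0.66 as the log2 ratio, and 2.42 CPM in the other cells of clusters 1 and 3. Tpm2 was at 34.2 and 67.6 CPM there (−0.89). Stmn4 had 16 and 29 UMIs (7.38 and 14.8 CPM), below the minimum for a test.

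**Figure D3:**
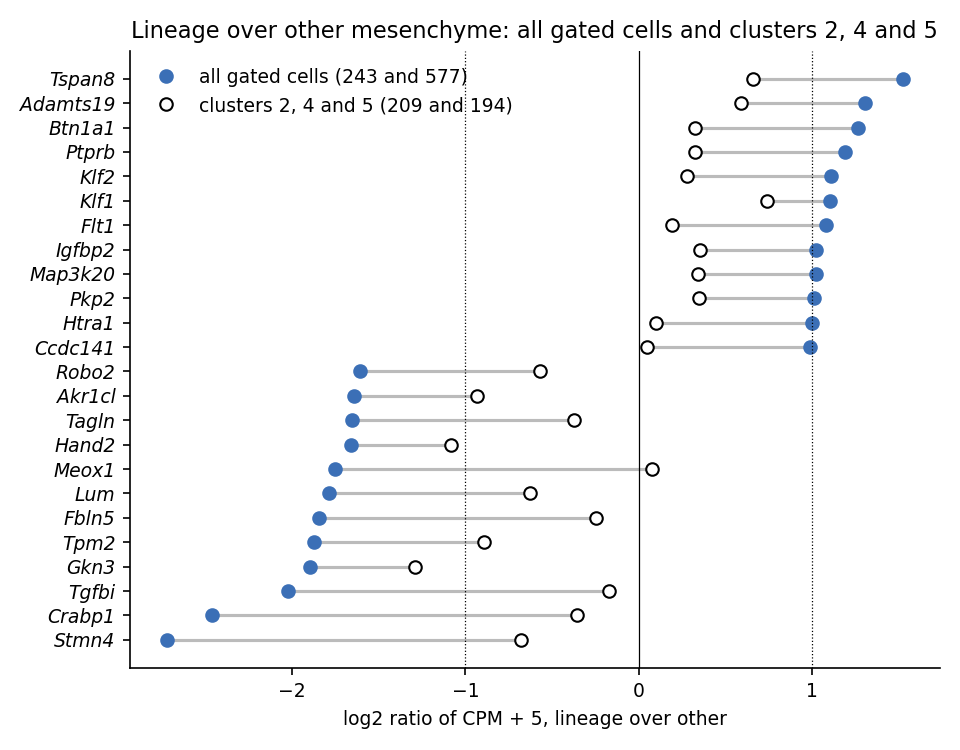
Log2 ratio of CPM plus 5, lineage over other mesenchyme (horizontal axis), for the 12 highest and 12 lowest genes, over all gated cells (filled, 243 and 577 cells) and in clusters 2, 4 and 5 alone (open, 209 and 194 cells). Dotted lines mark 2-fold, which only Gkn3 and Hand2 of the open points pass, and Hand2 there is below the count minimum.

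Hand2 was lower in the mixed clusters than in clusters 1 and 3, also among unmarked cells. Lineage cells held 10 UMIs in 209 cells, or 4.61 CPM (2.21 to 8.49), with at most 1 UMI per cell. Other cells held 30 UMIs in 194 cells, or 15.4 CPM (10.4 to 21.9), and 4 of them had 3 UMIs or more. The ratio of lineage to other was 0.301 (0.131 to 0.632), from counts below the minimum for testing in CPM. In the other cells of clusters 1 and 3 Hand2 had 343 UMIs, or 104 CPM (92.9 to 115). Unmarked cells of the mixed clusters had 0.148 times (0.0985 to 0.216) the Hand2 of unmarked cells in clusters 1 and 3, a comparison in which 3.26% of tested genes were past 2-fold.

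Control cells were placed on the H2CKO clusters by a vote of their 15 nearest H2CKO cells, without Hand2 and the reporters. The same vote returned 89.7% of H2CKO cells to their own cluster. Those cells had built the clusters, so this share does not measure how well control cells were placed. The 804 control cells placed in the mixed clusters had 181 CPM of Hand2 (173 to 189), and the 649 placed in clusters 1 and 3 had 187 CPM. Hand2 in the control was therefore about level between these clusters, with a ratio of 0.967 (0.907 to 1.03), while 2.34% of tested genes were past 2-fold between them. Against the placed control cells, unmarked H2CKO cells of the mixed clusters had a log2 ratio of −3.19, marked cells −4.27, and unmarked cells of clusters 1 and 3 −0.82. In the same comparisons 5.32%, 5.21% and 1.89% of tested genes were past 2-fold. For marked cells, 27 genes were higher and 312 lower. Gate genes were not tested. Twist1 was at 456 CPM in marked cells of the mixed clusters and 1317 CPM in control cells placed there, and Vcan at 1045 and 2916 CPM. Msx1 was about level, at 179 and 176 CPM. The placed control cells are therefore not shown to be in the same state. These Hand2 ratios compare 2 libraries, in which genotype, depth and library cannot be told apart.

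With each cell thinned to 5000 UMIs, a Hand2 UMI was present in 1.44% of lineage cells of the mixed clusters (95% interval 0.297 to 4.14), against 4.78% unthinned. The erythroid gate had 1.37% (1.07 to 1.72). That gate may hold more than free RNA, since 20 of its 5385 barcodes had 3 or more Hand2 UMIs. Before thinning, its barcodes were also deeper, at a median of 13538 against 9597 UMIs. Similar thinned shares therefore need not mean similar free RNA. Other cells of the mixed clusters had 5.21% (2.53 to 9.37) thinned and 10.3% unthinned, and other cells of clusters 1 and 3 had 39.7% and 55.0%. Control cells in the same clusters had 56.8% and 58.6% thinned. Too shallow to be thinned were 2 other cells of the mixed clusters, 3 of clusters 1 and 3, and 185 of the 5385 erythroid barcodes.

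The unmarked cells of the mixed clusters held the Tomato transcript. Tomato (Tomato.1) had 0 UMIs in the 209 lineage cells there, which allows up to 1.38 CPM at 3 counts, and 16 UMIs in the 194 other cells, or 8.19 CPM (4.68 to 13.3). The other cells of clusters 1 and 3 had 6.34 CPM of Tomato (3.92 to 9.69), and control cells placed in the mixed clusters had 33.2 CPM. In Tomato, the unmarked cells of the mixed clusters and those of clusters 1 and 3 had overlapping intervals. In Hand2, their intervals did not overlap. The cause was not tested.

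**Figure D4:**
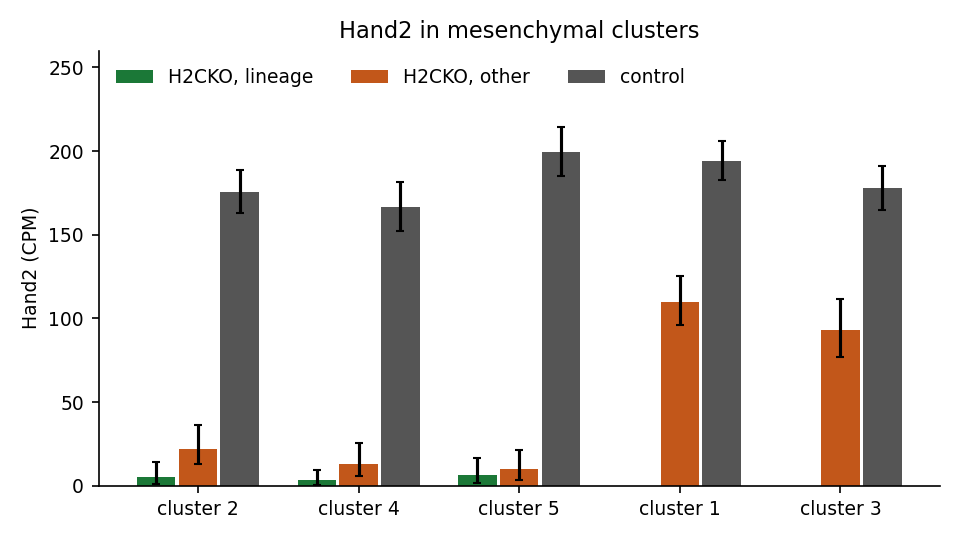
Hand2 (CPM, vertical axis) in H2CKO lineage, H2CKO other and placed control cells of clusters 2, 4, 5, 1 and 3, with exact Poisson 95% intervals as error bars. Lineage cells are not drawn in clusters 1 and 3, which hold 6 of them. Other H2CKO cells stand between 9.77 and 22.2 CPM in clusters 2, 4 and 5 and at 110 and 93.3 CPM in clusters 1 and 3.

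Promoters of the called genes were searched for the E-box CANNTG, the core motif of bHLH factors, and for CATCTG, an E-box form bound by HAND and TWIST factors. Both strands were read in the 250 bases before and 50 after each start in RefSeq (GRCm38.p6). CANNTG occurred in 3 of the 6 promoters found for higher genes and 16 of the 27 for lower genes, and in 72.1% of all 27025 promoters. CATCTG, which is also a CANNTG match, occurred in 1 of 6, 4 of 27 and 17.2%. Crabp1 (chr9:54764498-54764797, plus strand) and Tgfbi (chr13:56609336-56609635, plus strand), shown as the lowest genes with an entry, hold neither, and neither does Tspan8. Ppp1r14a (chr7:29289070-29289369, plus strand), a smooth muscle phosphatase inhibitor gene called lower, is shown for contrast and was chosen because it holds CATCTG, in capitals below.
Crabp1: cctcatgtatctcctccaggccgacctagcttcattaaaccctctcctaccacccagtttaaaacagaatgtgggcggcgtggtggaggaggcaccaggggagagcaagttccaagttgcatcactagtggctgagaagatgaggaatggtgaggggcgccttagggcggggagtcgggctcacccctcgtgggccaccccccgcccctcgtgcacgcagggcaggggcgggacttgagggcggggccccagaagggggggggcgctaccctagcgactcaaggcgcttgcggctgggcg
Tgfbi: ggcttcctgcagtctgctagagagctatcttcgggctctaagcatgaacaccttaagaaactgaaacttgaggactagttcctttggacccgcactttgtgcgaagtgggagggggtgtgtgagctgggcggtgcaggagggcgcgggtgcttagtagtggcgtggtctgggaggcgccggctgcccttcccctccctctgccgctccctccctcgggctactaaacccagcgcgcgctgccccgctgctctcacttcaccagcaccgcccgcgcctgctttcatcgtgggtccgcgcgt
Ppp1r14a: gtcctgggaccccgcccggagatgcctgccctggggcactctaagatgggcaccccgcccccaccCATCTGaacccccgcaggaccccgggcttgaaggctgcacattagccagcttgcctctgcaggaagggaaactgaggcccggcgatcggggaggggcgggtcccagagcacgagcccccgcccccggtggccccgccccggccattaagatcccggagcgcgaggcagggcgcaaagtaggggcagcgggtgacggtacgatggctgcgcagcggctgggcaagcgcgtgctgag
A match is a description of letters, and no match says nothing of HAND2 binding elsewhere.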

How the data were processed

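The authors deposited, per library, a matrix of UMI counts, 1 barcode per column and 1 Ensembl gene per line per the file headers, and 2 embedding coordinates per cell, a score without a unit that served only to mark the cells used. Cell Ranger 5.0.1, Seurat 4 and GRCm38.p6 are named in the submitters' processing notes, without their roles. The matrices hold 201477256 UMIs in H2CKO and 195825720 in the control. Of 22401 features, 22285 matched a symbol.

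UMIs were summed per group of cells and divided by all UMIs of the group (CPM). Log2 ratios used a pseudocount of 5, a minimum of 20 CPM and 20 UMIs in the higher group, and a call at 1 in size. Gate genes, reporters, haemoglobin and mitochondrial genes were not tested. Poisson, binomial (Clopper-Pearson) and conditional ratio intervals are exact at 95% (scipy 1.17.1). Clustering used 2000 variable genes, 20 components, 15 neighbours and Leiden resolution 0.5 (scikit-learn 1.9.0, leidenalg 0.10.2). No embedding cell had over 30% haemoglobin UMIs, so the erythroid gate used matrix barcodes with at least 500 genes, a change from the plan. The endothelial gate needed at least 4 of the 6 endothelial markers and fewer than 4 mesenchymal ones. The cardiomyocyte gate needed at least 2% of UMIs from the 5 cardiomyocyte genes and fewer than 4 markers of either other class. Doublets were not removed in the reported values. Leaving out the highest Scrublet scores (scanpy 1.11.5) is among the alternatives. The scripts were tested on simulated data. Members and gene lists were chosen with earlier results of these data known. Named genes are the 12 highest and 12 lowest tested genes, a set of named markers, list members past 2-fold and the 5 leading genes per cluster.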

Additional observations from a re-analysis of the deposited data

Results flagged for a closer look

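GFP transcript was present in the control mesenchyme, whose label lists no Cre. The 1900 gated control cells held 504 UMIs of GFP.1, or 14.9 CPM (95% interval 13.6 to 16.2), in 396 cells, which is above the limit of 3 counts used for a count of 0. The control endothelial and cardiomyocyte gates had 15.5 and 10.2 CPM, and the control erythroid gate 0.901 CPM. Lineage mesenchyme of H2CKO had 2385 CPM. The source of the control GFP UMIs was not tested.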

How the results depend on the processing

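Hand2 stayed lower in lineage cells by 2-fold or more under each alternative that can move its ratio, with log2 ratios from −1.08 (GFP cut at 1 UMI, and the mixed clusters alone, where it was below the count minimum) to −2.51 (without clusters 6, 7 and 8). The 2 filters on low values leave a single gene's ratio as it is, and at 100 CPM Hand2 is not tested. Counts of called genes moved more. Lower genes, 42 as reported, numbered 14 with the GFP cut at 1 UMI, 67 with cells thinned to 5000 UMIs, 16 with a pseudocount of 20, 11 with a filter at 100 CPM, 65 with no filter on low values, 1 in the mixed clusters alone and 69 without clusters 6, 7 and 8. Higher genes, 10 as reported, numbered 19 when thinned, 20 in cells with 8000 to 30000 UMIs, 27 and 0 with a pseudocount of 1 and 20, 1 with the 100 CPM filter, 45 with at least 5 mesenchymal markers, 17 with at most 5% mitochondrial UMIs and 0 in the mixed clusters alone. Lists with a member past 2-fold fell from 13 to 5 with the 100 CPM filter, which tests fewer genes, and to 0 in the mixed clusters. The gate with at least 5 markers left 130 lineage and 368 other cells. The cause of the other moves was not tested.

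The cardiomyocyte list median, 0.55 as reported, turned to −0.092 with at most 5% mitochondrial UMIs, −0.058 in the mixed clusters and −0.044 without clusters 6, 7 and 8. In the mixed clusters the endothelial list median turned to −0.010, and Meox1 (0.080), Rgs5 (0.16) and Inhba (0.084) changed sign. Restricting to the mixed clusters, leaving out clusters 6, 7 and 8, leaving out shared barcodes and placing control cells on the clusters were chosen after seeing the data. At Leiden resolution 1 there were 10 clusters. No paired analysis was possible because each genotype has 1 library, and leaving out a replicate could not be run for the same reason. Scrublet called 141 cells of the embedding as doublets, and the alternative left out the 312 cells with the highest scores (5%), 19 of them lineage and 24 other cells. Depth limits genes below 20 CPM, which were not tested.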
